A study of Mus musculus with 30 samples.

Results

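The genes described here are Pck2, the enzymes of serine synthesis (Phgdh, Psat1 and Psph), 2 mitochondrial folate enzymes (Shmt2 and Mthfd2), the transcription factor gene Atf4 and 3 of its known targets (Asns, Chac1 and Trib3). They were selected on their RNA levels in definitive endoderm and in epiblast stem cells, an earlier result of these data, and are 10 of 29555 genes in the tables. Their levels in that contrast are therefore a description: no p is given for them, and the counts of genes past a threshold there, which the choice had fixed, support nothing. The levels in epiblast stem cells of other mouse strains, and the accessibility of the chromatin peaks within 10 kb of each gene, are other measures and were tested, though with earlier results of the series known. All 10 genes were found in both RNA tables, and 52 of 158917 and 51 of 181059 peaks lay within 10 kb of them in the 2 peak tables.

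PCK2 is the mitochondrial phosphoenolpyruvate carboxykinase, which turns oxaloacetate into phosphoenolpyruvate and so can feed carbon from the citric acid cycle back towards glycolytic intermediates. PHGDH, PSAT1 and PSPH convert the glycolytic intermediate 3-phosphoglycerate into serine in 3 steps. SHMT2 and MTHFD2 then move a carbon of serine into the mitochondrial folate pool. ATF4 is a transcription factor whose protein is made when eIF2alpha is phosphorylated under amino acid shortage or other stress, and genes for all of these enzymes are known among its targets. In pluripotent cells these pathways are known for supplying amino acids and one-carbon units to growing cells.

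Epiblast stem cells (EpiSCs) are pluripotent cells resembling the epiblast after implantation. The lines were of the strains C57BL/6 (B6), PWK/PhJ (PWK), DBA/2J (DBA) and a B6.129 F1 cross (B6129F1), at passages 5 to 10. All were grown on feeder cells in an N2B27-based medium with Fgf2, ActivinA and the Wnt pathway inhibitor NVP-TNKS656, and were lifted with collagenase to limit feeder carry-over. Definitive endoderm (DE), the germ layer that gives rise to gut, liver and pancreas, was made from the B6 EpiSCs. The cells received CHIR99201 with ActivinA for 16 h and ActivinA with LDN193189 for 24 h, a protocol labelled 46 h in all, and CXCR4+ cells were then sorted on magnetic columns. The labels of these samples name no genetic change beyond the strain. Poly(A) RNA was sequenced in 5 B6 EpiSC libraries (numbered 1, 2, 4, 44 and 51), 4 B6 DE libraries (2, 4, 44 and 51), 3 of PWK EpiSCs (BioRep695, BioRep698 and 1 whose column matched its strain alone and no replicate label), 3 of B6129F1 EpiSCs (4, 9 and 1 placed by strain in the same way) and 1 of DBA EpiSCs. The DBA RNA sample is labelled BioRep698, a number that a PWK sample also carries, and was placed by its strain name. Open chromatin was measured by ATAC-seq in 4 B6 EpiSC libraries (1, 4, 44 and 51), 4 B6 DE libraries (2, 4, 44 and 51), 2 from PWK EpiSCs (BioRep698 and 1 placed by strain) and 1 from DBA EpiSCs.

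An ATF4 response element known as the amino acid or CHOP response element has the core TGATGNAA. The RefSeq start windows of the 10 genes (build GRCm38.p6, 250 bases before to 50 after each start) were searched for these letters on both strands. The core was found in the windows of 4 of 10 genes, Pck2, Asns, Chac1 and Trib3, against 3.97% of all 32851 windows of the same length. In Pck2 it lay at -103 to -96 from the start, in Asns at -23 to -16, in Chac1 at -193 to -186 and in Trib3 just past the start, at 15 to 22. The 250 bases upstream of Pck2 (chr14:55540016-55540265, plus strand), Asns (chr6:7693210-7693459, minus strand) and Chac1 (chr2:119350992-119351241, plus strand) are printed from 5′ to 3′ because these are the windows whose peaks are described further on, and for Trib3 the 30 bases around the core (chr2:152344028-152344057, minus strand) are given. Capitals mark the core, read on the strand of the gene.
Pck2: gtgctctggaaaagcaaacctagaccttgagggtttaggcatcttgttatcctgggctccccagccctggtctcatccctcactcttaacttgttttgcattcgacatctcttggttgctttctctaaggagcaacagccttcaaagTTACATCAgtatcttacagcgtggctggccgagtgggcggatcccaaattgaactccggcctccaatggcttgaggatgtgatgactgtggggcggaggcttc
Asns: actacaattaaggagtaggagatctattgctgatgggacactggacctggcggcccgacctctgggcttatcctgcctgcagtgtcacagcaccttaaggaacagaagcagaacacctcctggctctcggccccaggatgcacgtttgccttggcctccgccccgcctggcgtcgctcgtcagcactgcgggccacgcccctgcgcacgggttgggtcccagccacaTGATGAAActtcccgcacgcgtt
Chac1: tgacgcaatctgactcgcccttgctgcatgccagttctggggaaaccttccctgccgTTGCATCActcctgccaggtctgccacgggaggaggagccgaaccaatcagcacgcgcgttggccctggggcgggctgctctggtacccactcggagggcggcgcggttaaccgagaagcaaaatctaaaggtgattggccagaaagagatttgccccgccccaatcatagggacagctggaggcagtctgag
Trib3: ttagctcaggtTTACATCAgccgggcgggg
Pck2 and Trib3 carried the same 8 letters, TTACATCA, which is the core on the opposite strand, whereas Asns had it on the strand of the gene. The windows of Phgdh, Psat1, Psph, Shmt2, Mthfd2 and Atf4 did not hold these letters. TGACGT, the start of the cyclic AMP response element, was found for Psph alone among the 10 genes and in 7.51% of all windows, and CCAAT was found for 7 genes (Pck2, Phgdh, Psat1, Psph, Mthfd2, Chac1 and Atf4) and in 37.4% of all windows. None of these 3 motifs overlapped another in the 10 windows.

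Total counts per RNA library ran from 22829536 to 66563933, the highest being DE 4 and DE 51, and from 3751526 to 9571127 per ATAC library. The labels were checked against marker genes. All 9 DE markers were higher in DE, where their summed level was 6090 to 12800 CPM (counts scaled to a common library size) against 160 to 392 CPM in EpiSCs. Of 7 EpiSC markers, Pou5f1, Nanog, Sox2 and Utf1 were lower in DE and Fgf5 and Otx2 were higher. Their summed level did not separate the groups, at 2980 to 3980 CPM in DE and 2750 to 4100 CPM in B6 EpiSCs. The summed level of 12 feeder fibroblast markers, such as collagen genes, varied widely among EpiSC libraries, from 81.5 CPM in B6 1 to 2860 CPM in B6 51, 152 to 233 CPM in B6129F1, 1500 CPM in DBA and 2320 to 3060 CPM in PWK. It was 89.2 to 283 CPM in DE. Visceral endoderm markers summed to at most 16.8 CPM, mesoderm markers to 37.7 to 67.1 CPM in DE and 117 to 558 CPM in B6 EpiSCs, and neuroectoderm markers to at most 10.2 CPM in these 2 groups. Bulk libraries cannot tell apart fewer cells expressing a gene and less RNA per cell.

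Pck2 (ENSMUSG00000040618; chr14:55540263-55550020, plus strand) had no count in any of the 4 DE libraries. In EpiSCs the same scaling gave 45.1 CPM in library 1, 60.3 in 2, 65.9 in 4, 74.5 in 44 and 35.3 in 51, a mean of 56.2 ± 15.9 (SD, n = 5), from 956 to 2302 counts. The 4 DE libraries held 174799584 counts together. Against a floor of 3 counts per library, Pck2 was at least 616-fold lower in DE. Pck2 was chosen on this contrast and passed the filter only through its EpiSC counts. The bound, and its place among all genes given next, are therefore a description and support nothing. Of the 9988 genes with at least 100 counts in every EpiSC library, 5 were at 0 in all 4 DE libraries (Pck2, Fat3, Gm15516, Foxi3 and Cend1). With at least 500 counts in every EpiSC library there were 6727 genes, and Pck2 was the only one at 0. The gene with the next lowest sum, Sh3d19, had 3 DE counts in all. Library DE 2 still held 744 counts of the pluripotency factor gene Pou5f1, 3.36% of its mean EpiSC level, and 4.12% of that of Sox2. The same shares of Pck2 would have been 37.1 and 45.5 counts in that library, where 0 were found. Dcaf11, which lies beside Pck2, went the other way. It was 140 ± 14.9 CPM in DE (SD, n = 4) and 44.1 ± 3.65 CPM in EpiSCs (SD, n = 5), a log2 difference of 1.67 (SE 0.12, adjusted p = 2.869e-06). Pck1, the cytosolic enzyme of the same reaction, had no count in any of the EpiSC libraries, 3 counts in DE 2 and none in the other DE libraries. Feeder markers moved with this contrast, 10 of 12 being lower in DE. EpiSC library 1, with a feeder sum of 77.9 CPM, below that of every DE library, held Pck2 at 45.1 CPM. The part of feeder cells in this difference was not tested.

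Among the serine synthesis enzymes, Psat1 stood farthest apart. PSAT1 is the aminotransferase of the second step. Psat1 (chr19:15905123-15925059, minus strand) was at 127 CPM in DE 2, 194 in DE 4, 132 in DE 44 and 243 in DE 51, and at 1037, 1005, 957, 1054 and 776 CPM in EpiSCs 1, 2, 4, 44 and 51, a log2 difference of -2.47 (SE 0.22). Every DE library lay far below every EpiSC library. Phgdh (chr3:98313171-98339969, minus strand), the enzyme of the committed first step, was at 192, 185, 166 and 310 CPM in DE and at 327, 278, 453, 460 and 305 CPM in EpiSCs, with a log2 difference of -0.77 (SE 0.23). DE 51 exceeded EpiSC libraries 2 and 51, so the groups overlapped. Psph (chr5:129765558-129787443, minus strand), the phosphatase of the last step, had 37.6 to 59.6 CPM in DE and 52.0 to 87.1 CPM in EpiSCs, a log2 difference of -0.54 (SE 0.19). DE 2 lay above EpiSC 51 here. The gene overlaps Cct6a in the annotation, and whether counting used the strand is not given in the sources used here.

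Both mitochondrial folate enzymes were lower in every DE library than in every EpiSC library. Shmt2 (chr10:127517123-127522444, minus strand), which splits serine into glycine and a one-carbon unit, was at 75.7, 89.0, 71.3 and 83.8 CPM in DE 2, 4, 44 and 51 and at 223, 358, 351, 387 and 280 CPM in EpiSCs 1, 2, 4, 44 and 51. The log2 difference was -1.999 (SE 0.18). Shmt2 overlaps Ndufa4l2 in the annotation. Mthfd2 (chr6:83305704-83326011, minus strand), the dehydrogenase and cyclohydrolase that follows SHMT2, was at 74.9, 84.5, 63.99 and 107 CPM in DE and at 271, 264, 283, 281 and 178 CPM in EpiSCs, a log2 difference of -1.63 (SE 0.19). EpiSC 51, the lowest of its group, was still above DE 51, the highest of the other.

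Atf4 itself (chr15:80255184-80257545, plus strand) was at 311 CPM in DE 2, 193 in DE 4, 189 in DE 44 and 198 in DE 51. In EpiSCs it was at 547, 498, 564, 564 and 454 CPM, and the log2 difference was -1.24 (SE 0.18). DE 2 stood above the other 3 DE libraries but below every EpiSC library. Chac1 (chr2:119351242-119354326, plus strand), a glutathione-degrading enzyme, was at 8.50, 12.8, 12.1 and 14.6 CPM in DE and at 57.5, 91.5, 87.8, 113 and 58.5 CPM in EpiSCs, a log2 difference of -2.76 (SE 0.26). This was the largest fitted difference among the 9 genes with counts in both groups. Trib3 (chr2:152337425-152344060, minus strand), a pseudokinase that restrains ATF4 signalling, had 28.7 to 36.1 CPM in DE and 56.4 to 104 CPM in EpiSCs, a log2 difference of -1.30 (SE 0.21), with no overlap. Asns (chr6:7675165-7693209, minus strand), asparagine synthetase, was at 333, 338, 269 and 401 CPM in DE and at 671, 421, 669, 645 and 367 CPM in EpiSCs, a log2 difference of -0.73 (SE 0.22). DE 51 lay above EpiSC 51, so these groups overlapped.

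In the fit of all 14085 genes with edgeR, 10 of the 10 genes lay past an adjusted p of 0.05 as lower in DE, where 30.6% of all genes did so, 31.5% were higher and 62% changed either way. With the replicate number as a block, Psph and Asns did not. In 7 of 10, every one except Phgdh, Psph and Asns, the groups did not overlap, against 27.6% of all genes. Nothing is read from these counts, since this contrast chose the genes. Their median log2 difference was -1.46, against -0.01 over all genes tested.

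**Figure D1:**
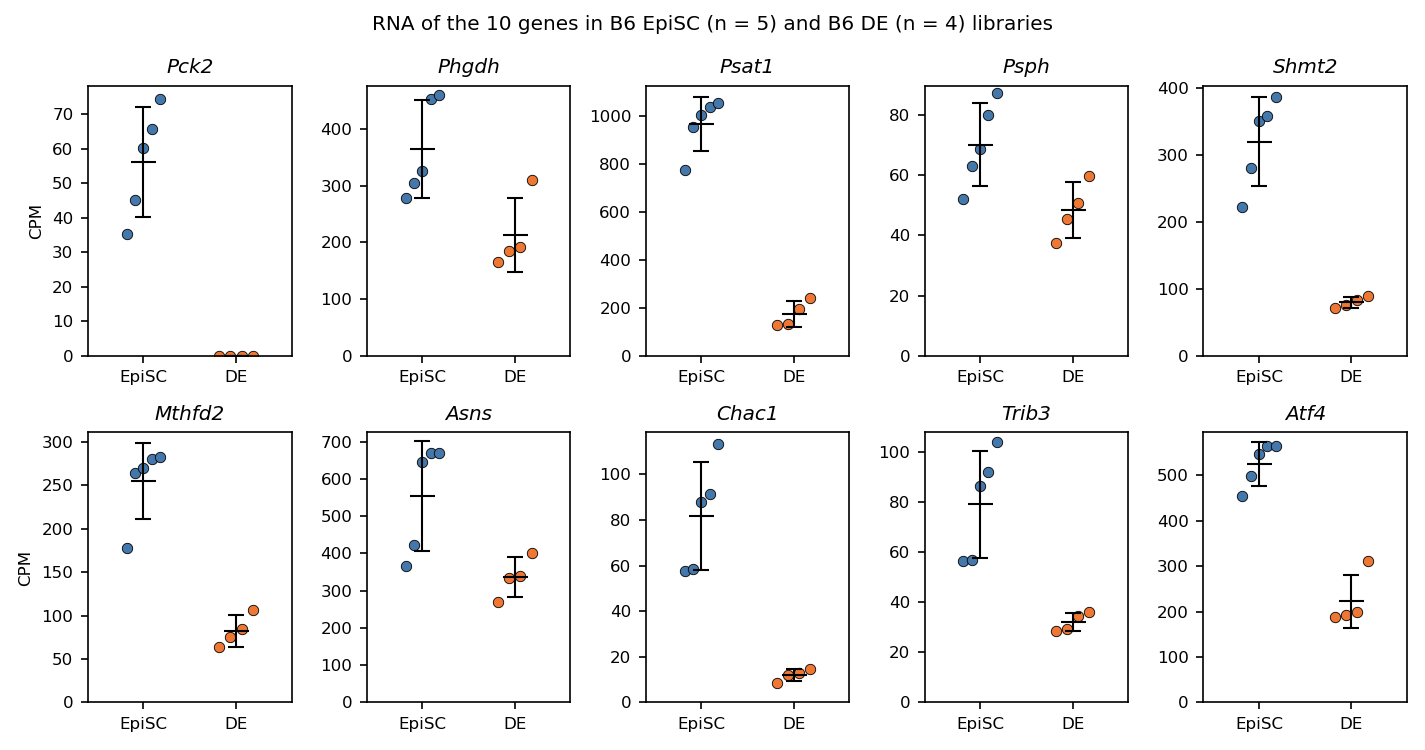
RNA level of each of the 10 genes (CPM, linear axis from 0) in B6 EpiSC and B6 DE libraries, 1 point per library with the group mean and SD as bars. Pck2 lies at 0 in all 4 DE libraries, 7 genes show no overlap between the groups, and Phgdh, Psph and Asns overlap.

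Chromatin accessibility differed at some of the starts and at more distant peaks. Of the 48 peaks that could be tested within 10 kb of the genes, 10 were higher and 16 lower in DE, 26 in all, against 57.6% of all peaks tested (32.6% higher, 25% lower). Of the 10 peaks at the starts themselves, 1 was higher and 4 were lower, against 13.6% and 13.3% of the 11757 peaks at start windows (26.9% either way).

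The peak over the start of Pck2 (chr14:55540074-55540504), which covers the core printed above for that gene, was at 38.3 CPM in DE 2, 30.6 in DE 4, 27.8 in DE 44 and 32.9 in DE 51. In EpiSCs 1, 4, 44 and 51 it was at 45.9, 51.1, 57.9 and 62.3 CPM, a log2 difference of -0.75 (SE 0.15, adjusted p = 0.000157). All DE libraries lay below all EpiSC libraries, as at 23.4% of all peaks, but the peak was still counted in DE, where no Pck2 RNA was. The Chac1 start peak was at 16.3, 15.0, 12.9 and 13.8 CPM in DE and at 26.6, 25.7, 30.9 and 31.5 CPM in EpiSCs, a log2 difference of -0.98 (SE 0.17, adjusted p = 5.719e-05). The Mthfd2 start peak was at 18.3, 15.6, 23.0 and 20.5 CPM in DE and at 30.9, 29.3, 39.0 and 38.3 CPM in EpiSCs, a log2 difference of -0.82 (SE 0.17, adjusted p = 0.0003252). Neither of these peaks overlapped between the groups. At Psat1 the start peak fell by 0.37 on the log2 scale (SE 0.13, adjusted p = 0.01903), from 42.7 to 50.2 CPM in EpiSCs to 34.9 to 38.2 CPM in DE.

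At Atf4 the start peak went against the RNA. It was at 65.0, 68.8, 57.7 and 69.5 CPM in DE and at 47.0, 47.9, 48.2 and 51.4 CPM in EpiSCs, a log2 difference of 0.42 (SE 0.12, adjusted p = 0.004613). Scaling by total library size, which moved the median of all peaks to -0.22, ended this call (adjusted p = 0.1282), as did leaving out EpiSC 1 (0.05573) or EpiSC 51 (0.1157), the replicate block (0.06057) and the libraries of the blocked fit without the block (0.05394). The start peaks of Phgdh (log2 difference -0.48, adjusted p = 0.09041), Asns (0.28), Psph (0.03, a peak shared with the start of Cct6a), Shmt2 (-0.30) and Trib3 (-0.13) did not pass the threshold. The Phgdh peak did pass it in 5 alternative settings.

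**Figure D2:**
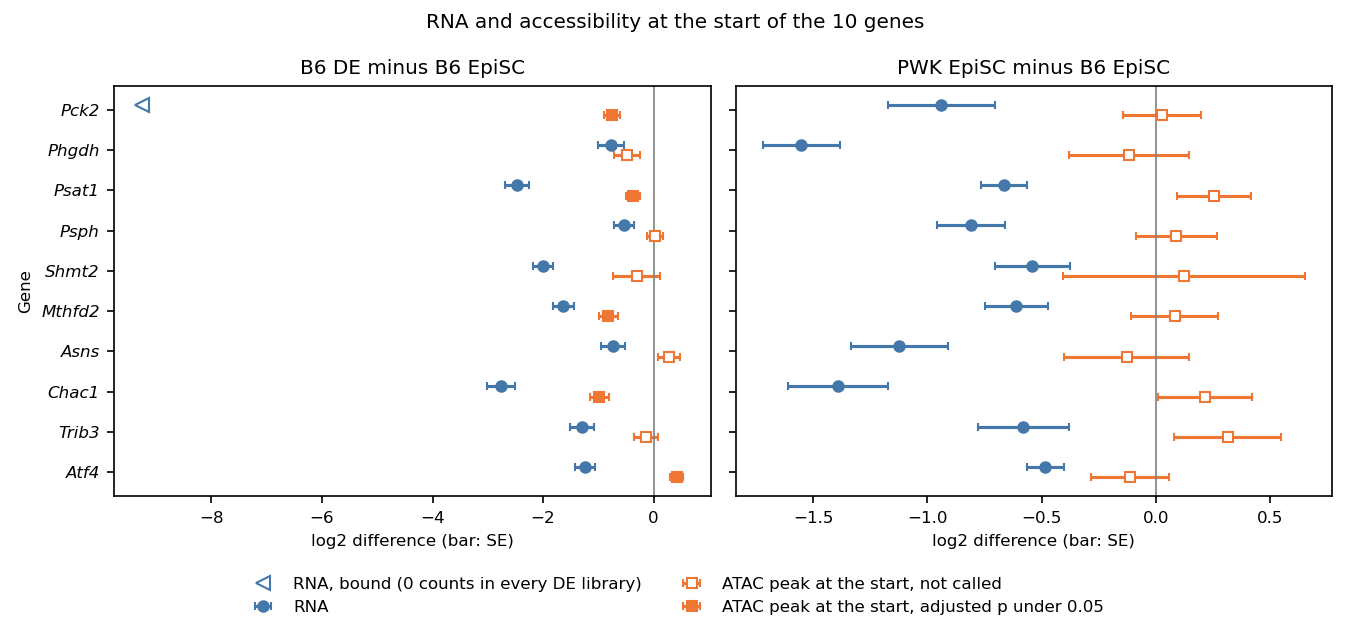
Log2 difference of DE (left) and of PWK EpiSC (right) from B6 EpiSC for the RNA (blue) and the start peak (orange) of each gene, with the SE as bars and filled squares for peaks past the threshold. On the left the Atf4 peak lies above 0 while its RNA lies below, and the Pck2 RNA is a bound because DE held no counts, and on the right all RNA values lie below 0 and no start peak is filled.

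Away from the starts, 9 of 38 tested peaks were higher and 12 lower, a share near that of all peaks (57.6% either way). The peaks named here had the smallest p near their gene or were chosen after their values were seen. Distances are counted along the gene's own strand from its start to the centre of the peak. A peak 6349 bases before the Mthfd2 start used here still lay within the annotated span of the gene. This peak was at 1.55 to 5.71 CPM in EpiSCs and at 31.8 to 36.2 CPM in DE. It passed the filter only through its DE counts, so no fold or p is given. Inside Psat1, a peak 1976 bases past the start had 43, 29, 70 and 13 counts in DE 2, 4, 44 and 51 and 2, 6, 2 and 2 counts in EpiSCs 1, 4, 44 and 51. It could be tested only because of its DE counts, so no fold is given. Both genes had less RNA in DE. At Atf4, a peak 2611 bases past the start rose from 8.37 to 11.7 CPM to 34.4 to 45.6 CPM (adjusted p = 1.138e-08), whereas a peak at 3352 bases had a log2 difference of -1.17. A peak 4598 bases past the start of Chac1 had a log2 difference of -1.53 (adjusted p = 2.102e-05). One 6801 bases before the start of Trib3, inside the gene model Gm14164, had 2, 4, 2 and 0 counts in DE 2, 4, 44 and 51 and 23, 33, 11 and 23 counts in EpiSCs 1, 4, 44 and 51, and is given without a fold because it could be tested only through its EpiSC counts. The Chac1 peak followed the direction of its RNA. A peak 631 bases before the start of Asns had a mean of 1.8 CPM in DE and 4.3 CPM in EpiSCs. It too could be tested only through its EpiSC counts, so no fold or p is given. No direction is read from it or from the Trib3 peak. Its call was lost with the replicate block and without EpiSC 44. At Shmt2 the peak with the smallest p, 9336 bases past the start and inside Ndufa4l2, rose by 1.89 (adjusted p = 5.706e-08). By gene, 5 of 6 tested peaks near Trib3 and 2 of 2 near Chac1 were lower, 2 of 3 near Psat1 were higher, none of 4 near Phgdh and none of 3 near Psph passed, and of 3 near Pck2 the start peak alone did. These counts include peaks that could be tested only through the group where they were high. Among them are both higher peaks near Psat1 and those 5892 and 6801 bases before the start of Trib3. Nothing is read from the counts by gene.

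Lists of related genes were set beside the 10. Over all genes, 30.6% were lower and 31.5% higher in DE, with a median of -0.01. Among stress genes named as ATF4 targets, 12 of 18 tested were lower in DE and 1 was higher, with a median log2 difference of -1.10. Atf5, a transcription factor related to ATF4, was at -3.82 and Jdp2 at -2.27, while Ppp1r15a, which encodes the eIF2alpha phosphatase subunit GADD34, was higher by 0.72. Of the amino acid transporters named as ATF4 targets, 6 of 10 were lower and none was higher, with a median of -1.19. The cationic amino acid transporter gene Slc7a1 was at 15.7 ± 6.53 CPM in DE (SD, n = 4) and 211 ± 39.8 CPM in EpiSCs (SD, n = 5), a log2 difference of -3.75, and Slc7a3 was at -3.46. Of 20 cytosolic aminoacyl-tRNA synthetase genes, 6 were lower (Iars -1.46, Lars -1.24) and 2 higher (Dars 1.16, Farsa 0.98), with a median of -0.18.

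The other lists were divided or went up. Of 19 further folate and one-carbon enzymes, 5 were higher and 6 lower, with a median of -0.24. Aldh1l1, the cytosolic formyltetrahydrofolate dehydrogenase, was higher by 4.35 and Gcsh by 1.82, whereas Amt, which like Gcsh belongs to the glycine cleavage system, was at -4.56 and the methionine synthase gene Mtr at -3.31. Of 10 tested serine and sulfur amino acid genes, 4 were higher (Sptlc1 0.58) and 2 lower (Cth -3.50, Cbs -0.91). Of 8 tested enzymes around phosphoenolpyruvate and pyruvate, Mdh2 (1.14) and Pkm (0.94) were higher and 3 were lower, among them Got1 (-0.91). The eIF2alpha kinases, eIF2B subunits and phosphatase subunits had 6 of 13 higher (Eif2b1 1.07, Eif2b3 1.02) and 4 lower (Eif2ak2 -2.31, Gcn1 -1.18). ER folding genes of the XBP1 and ATF6 arms of the unfolded protein response were higher in 11 of 16, with a median of 1.09 (Sdf2l1 3.40, Creld2 2.82), while the sensors Ern1 (-2.13) and Atf6 (-0.99) were lower. In all, 72 of the 114 tested genes of these lists passed the threshold, a share near the 62% of all genes.

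The next question was how the 10 genes varied among EpiSCs of different strains. PWK and DBA reads were counted on the mm10 genome, which is based on C57BL/6, so sequence differences between strains and differences in RNA or accessibility cannot be told apart. The 5 B6 EpiSC RNA libraries on which the genes were chosen are also the reference for PWK, B6129F1 and DBA, so these comparisons are not independent of the choice, and nothing is drawn from their likeness to the DE comparison. In PWK, 9 of 10 genes were lower than in B6, against 14.5% of all genes tested (12% higher, 26.5% either way). In 8 of 10, every one except Shmt2 and Trib3, the groups did not overlap, against 15.8%. The median log2 difference was -0.74, against -0.01 over all 14822 genes.

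Pck2 was at 47.2, 62.1, 67.4, 76.3 and 36.0 CPM in B6 libraries 1, 2, 4, 44 and 51. In PWK it was at 32.7 CPM in BioRep695, 21.7 in BioRep698 and 35.5 in the library placed by strain, a log2 difference of -0.94 (SE 0.24, adjusted p = 0.0142). Leaving out PWK BioRep698 ended this call (-0.77, adjusted p = 0.06626). In B6129F1 Pck2 was at 75.7, 78.9 and 77.4 CPM, and in the DBA library at 29.4 CPM. The order of the strains was B6129F1, B6, PWK and DBA. The highest B6 library (76.3) reached into the B6129F1 range, and DBA lay within the PWK range.

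Phgdh differed most between PWK and B6 among the 10. It was at 342, 286, 464, 471 and 310 CPM in B6 and at 129, 118 and 134 CPM in PWK, a log2 difference of -1.55 (SE 0.17, adjusted p = 9.232e-05). Psat1 fell by 0.67 on the log2 scale (SE 0.10, adjusted p = 0.0009189), from 790 to 1085 CPM in B6 to 569 to 651.3 CPM in PWK. For Psph the difference was -0.81 (SE 0.15, adjusted p = 0.002618), with 53.0 to 89.2 CPM in B6 and 39.0 to 43.8 CPM in PWK. All 3 steps of serine synthesis were thus lower in each PWK library than in each B6 library. Mthfd2 had 181 to 289 CPM in B6 and 156 to 180 CPM in PWK, a log2 difference of -0.61 (SE 0.14, adjusted p = 0.008006). Shmt2 was at 233 to 396 CPM in B6 and 203 to 259 CPM in PWK, with overlap, and its difference of -0.54 (SE 0.16, adjusted p = 0.0334) was lost in 6 alternative settings.

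Atf4 was at 572, 513, 577, 578 and 462 CPM in B6 and at 374, 370 and 410 CPM in PWK, a log2 difference of -0.48 (SE 0.08, adjusted p = 0.001438). The B6 library nearest to PWK was 51. Asns was at 702, 434, 685, 661 and 374 CPM in B6 and at 265, 256 and 261 CPM in PWK, a log2 difference of -1.12 (SE 0.21, adjusted p = 0.003098). Chac1 was at 60.1, 94.2, 89.9, 116 and 59.6 CPM in B6 and at 30.1, 30.3 and 35.2 CPM in PWK, a log2 difference of -1.39 (SE 0.22, adjusted p = 0.001079). For both genes the 3 PWK libraries lay close together while the B6 libraries spread widely. Trib3, with 57.5 to 107 CPM in B6 and 47.9 to 62.6 CPM in PWK, did not pass the threshold (log2 difference -0.58, SE 0.20, adjusted p = 0.05219), and did so with DESeq2 (adjusted p = 0.02163) or without B6 1 or B6 51.

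Against B6129F1, a comparison added after the data had been seen, all 10 genes were lower in PWK, also when only the libraries of these 2 strains were fitted, with no overlap for any. The background was 19.4% of genes lower (40% either way) and 30.8% lower without overlap. The log2 differences ran from -0.63 for Atf4 to -1.59 for Chac1, with -1.32 for Pck2 (SE 0.26, adjusted p = 0.002946) and -0.72 for Shmt2 (adjusted p = 0.01039). Between B6129F1 and B6 none of the 10 genes passed the threshold by edgeR's test, against 2.84% of all genes. That share ran from 0% without the B6129F1 library placed by strain to 13.2% without B6 1. Of the 10 genes, 4 had an unadjusted p under 0.05, as did 3614 of all 14822 genes. DESeq2 called 4, against 13.5% of all genes. Psat1, Psph, Mthfd2 and Trib3 were higher in every B6129F1 library than in every B6 library, against 14.5% of genes without overlap in either direction. Scaling by total library size turned the balance over all genes between PWK and B6 from 1781 higher and 2142 lower to 2226 and 1708, and between PWK and B6129F1 from 3067 and 2869 to 3606 and 2180. The counts of the 10 genes stayed at 9 and 10 lower.

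The single DBA library, which allows no test, lay below every B6 library for 9 of 10 genes, all but Shmt2, against 21.9% of genes. It was the lowest of all 12 EpiSC libraries for 7 of them, against 13%. Phgdh reached 30.3% of the B6 mean, Asns 43.9%, Chac1 14.9% and Trib3 35.0%. These 4 were more than 2-fold lower, as were 3.88% of all genes. Chac1, at 12.5 CPM, was far below its lowest PWK value.

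**Figure D3:**
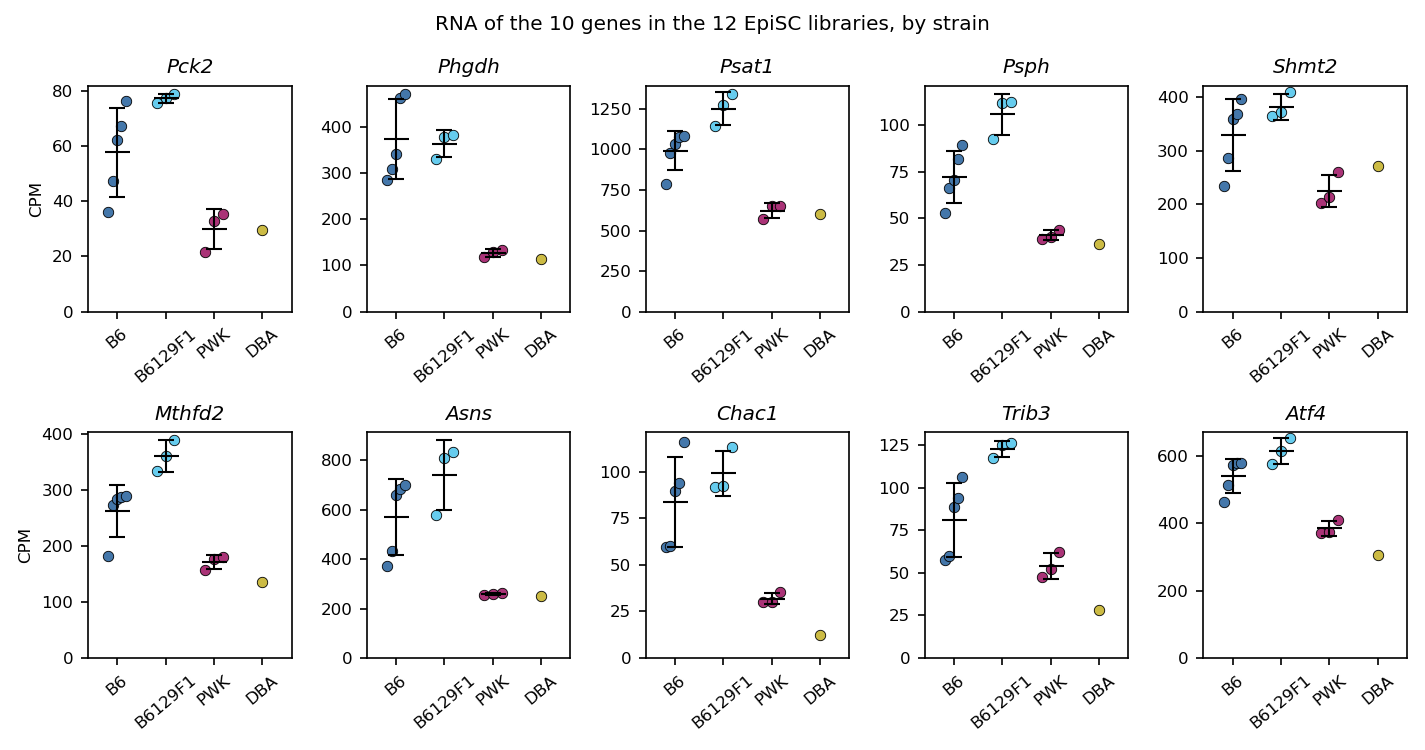
RNA level of each of the 10 genes (CPM, linear axis from 0) in EpiSC libraries of B6, B6129F1, PWK and DBA, 1 point per library with mean and SD for groups of 3 or more. PWK and DBA sit low for nearly all genes. A B6129F1 library is the highest of the 12 for 8 genes. B6129F1 holds 3 of the 12 libraries, and the share of all genes highest there was not computed.

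The B6 libraries also differed among themselves. Library 51 was the lowest of the 5 for 8 of 10 genes, as it was for 22.6% of all genes, and library 44 the highest for 7, against 11.4%. Feeder markers moved with the strains and with these libraries. They were highest in PWK (2320 to 3060 CPM) and in B6 51 (2860 CPM) and lowest in B6 1 (81.5 CPM). Between PWK and B6 none of the 12 feeder markers passed edgeR's test (2 had an unadjusted p under 0.05; median log2 difference 1.28), and between PWK and B6129F1 all 12 were higher in PWK. The part of feeder cells in the strain differences was not tested. B6 51, whose feeder sum lay within the PWK range, was above every PWK library for 9 of 10 genes, all but Trib3, with margins as small as 36.0 against 35.5 CPM for Pck2 and 181 against 180 CPM for Mthfd2. For the 8 genes without overlap between PWK and B6 this follows from that lack of overlap. The share of all genes with B6 51 above every PWK library was not computed, and nothing is read from the count.

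**Figure D4:**
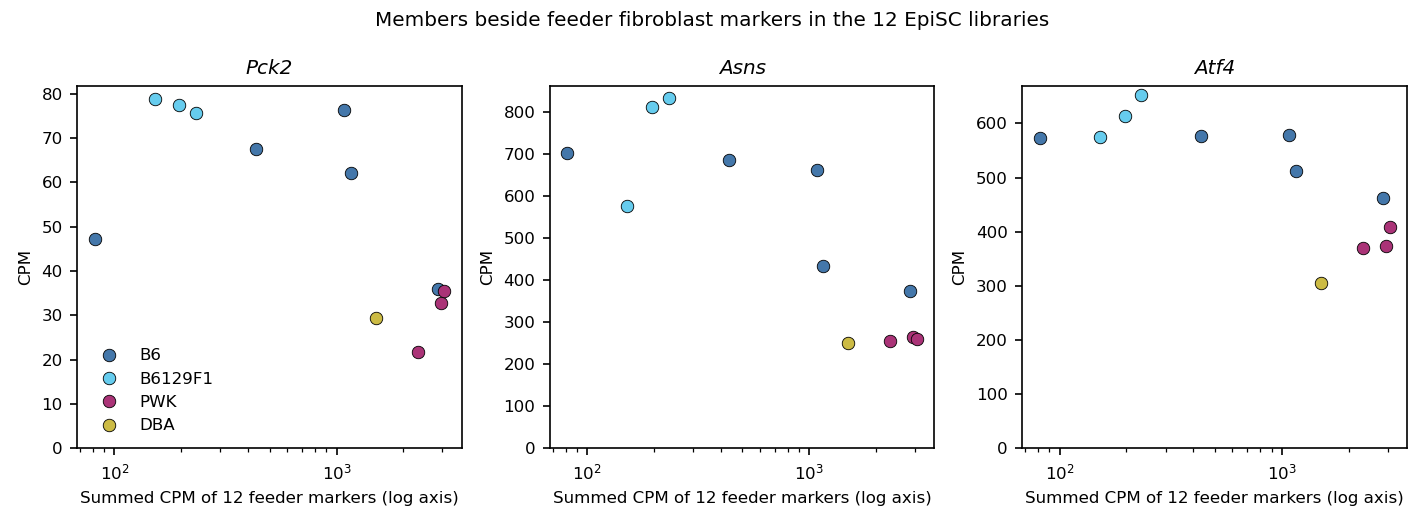
RNA level of Pck2, Asns and Atf4 (CPM, linear axis) against the summed level of 12 feeder markers (CPM, log axis) in the 12 EpiSC libraries, coloured by strain. B6 51 has a feeder sum of 2860 CPM, inside the PWK range of 2320 to 3060 CPM. Like every other B6 point, it lies above all PWK points in each panel.

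At the starts, no change in accessibility was called between PWK and B6. None of the 10 start peaks passed edgeR's threshold (2.71% of start-window peaks did), with log2 differences from -0.13 to 0.31, and the Pck2 start peak had 54.3 CPM in PWK against 53.9 CPM in B6 (log2 difference 0.03, SE 0.17). With 2 PWK libraries small differences were not detectable. Of 47 tested peaks within 10 kb, 1 was called, against 5.11% of all peaks (3.68% lower). This was a peak at chr6:7693795-7693890, centred 634 bases before the start of Asns. It had 0 counts in both PWK libraries and 17, 39, 28 and 28 counts in B6 1, 4, 44 and 51. It could be tested only because of its B6 counts, so the call had to be lower, and no fold or p is given. The DBA library had 75 counts there. In the DBA library 1 of 10 start peaks, that of Atf4, was below every B6 library, against 25% of all peaks, and none was beyond 2-fold, against 18.1%. These shares are of all peaks, not of start-window peaks alone.

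Against a background of 14.5% of genes lower and 26.5% changed either way, PWK was lower than B6 in 8 of 10 amino acid transporters (median log2 difference -0.71, Slc7a1 -1.26), 9 of 18 tested stress genes (median -0.53) and 10 of 20 aminoacyl-tRNA synthetases (median -0.23), with none of these higher. Folate enzymes had 4 lower, Amt at -1.61 among them, and 2 higher of 19. The eIF2alpha kinase group had none lower and 2 higher of 13, Impact and Eif2ak2, the latter by 1.54. ER folding genes had 3 lower and 1 higher of 16. Of the serine and sulfur amino acid genes 1 of 10 was higher, and of those around pyruvate 3 of 9 were lower. Against B6129F1, PWK was lower in 8 of 10 transporters, 11 of 18 stress genes and 14 of 20 synthetases, where 19.4% of all genes were lower. Between B6129F1 and B6, 2 genes of these lists passed, Cbs (lower) and Yars (higher). That count was 21 with DESeq2, 18 without B6 1, 6 without B6 2, and 0 without any 1 of the PWK libraries or without B6129F1 4 or the B6129F1 library placed by strain. In the single DBA library the medians were -0.95 for stress genes, -0.67 for transporters and -0.30 for synthetases, against -0.02 over all genes tested. For the other lists they were 0.22 for ER folding genes, 0.09 for the eIF2alpha kinase group and 0.07 for enzymes around pyruvate. Folate enzymes had 0.05, and serine and sulfur amino acid genes -0.08.

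**Figure D5:**
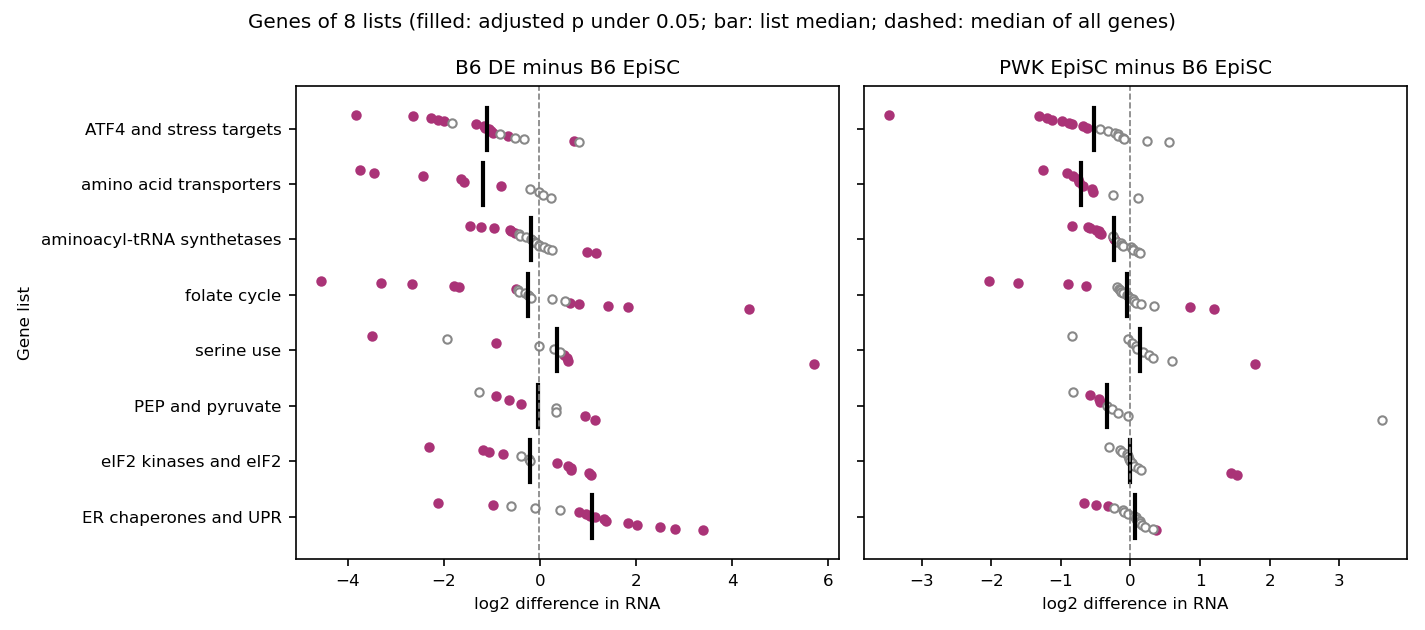
Log2 differences of the genes of each list for DE against B6 EpiSC and for PWK against B6 EpiSC, 1 point per gene, filled where adjusted p was under 0.05, with the list median as a bar and the median of all genes dashed. Both panels share the 5 B6 EpiSC libraries. In DE the medians run from -1.19 for transporters to 1.09 for ER folding genes.

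Across the 12 EpiSC libraries, the genes whose log2 levels ran most like Pck2 were Prss36, a serine protease gene (Pearson's r 0.975, Spearman's rho 0.923), Ankrd27 (0.968 and 0.916) and Hapln4 (0.964 and 0.902). Within strains, over the 11 libraries of B6, B6129F1 and PWK after each strain's mean was removed, r was 0.887, 0.884 and 0.858. The genes most like the mean of the 10 were Aldh18a1, which makes the precursor of proline (0.985 and 0.986), Atf3 (0.984 and 0.958) and the alanine aminotransferase gene Gpt2 (0.976 and 0.972), with 0.908, 0.850 and 0.861 within strains. The libraries share strain and feeder differences, and these values are a description without a test. All 3 were also on the list of stress genes named as ATF4 targets. That list was written with earlier results of these data known, so nothing is read from this.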

How the data were processed

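Gene and peak counts were deposited by the authors as whole-number counts. The submitters' processing notes name Salmon, featureCounts and DESeq2 for RNA, fastp, Bowtie2, MACS2, featureCounts and DESeq2 for ATAC, and mm10. Their roles and settings are not given in the sources used here. The 10 genes and the lists were chosen with earlier results of these data known. Counts were fitted with edgeR 4.0.16 (R 4.3.3; TMM scaling, filterByExpr, robust quasi-likelihood test, Benjamini-Hochberg adjustment over all genes or peaks), separately for the DE and the EpiSC tables, the latter over all replicated strains. CPM were computed on TMM-scaled library sizes. SE is the log2 difference divided by the root of F. Group and peak tests were tested on simulated data. Of each list, the 2 genes per direction with the largest called change in DE are named (mean log2 CPM of at least 3, no overlap), and for each of the 10 genes the start peak and the peak with the smallest p. Dcaf11, genes at 0 in DE and the peak 3352 bases past Atf4's start were named after their values were seen, as were Impact and Yars. The labels number biological replicates without saying whether they were separate lines, so p-values measure the spread between these samples. Columns of 3 libraries were placed by strain alone, 17 columns matching no sample and 3 PWK DE samples were not analysed here. Floors cover counting error only, whereas SD and SE include the spread between libraries. Alternatives were DESeq2 1.42.0, other scalings, filters, peak distances, blocks and leaving out each library.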

Additional observations from a re-analysis of the deposited data

Results flagged for a closer look

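Of 39 groups of 4 or 5 libraries checked, 3 had a library far from the others, where chance alone gives about 1 in 20. Mthfd2 RNA was 178 CPM in B6 EpiSC 51, with the other 4 libraries at 264 to 283 CPM. Atf4 RNA was 310 CPM in B6 DE 2, with the other 3 at 189 to 198 CPM. The Trib3 start peak was 11.7 CPM in B6 EpiSC 44, with the other 3 at 18.2 to 19.4 CPM.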

How the results depend on the processing

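No value changed direction past its threshold under any alternative. Leaving out each library in turn gave 9 to 10 of the 10 genes lower in DE, 7 to 10 lower in PWK against B6, 10 against B6129F1, and 0 to 1 higher in B6129F1 (1 without B6 1), where DESeq2 called 4 (13.5% of all genes either way). It gave 16 to 18 nearby peaks lower and 9 to 11 higher in DE, and 66 to 82 and 30 to 49 list genes changed in DE and PWK. Asking for 10 counts in every library left 5 peaks higher in DE and none lower in PWK, and removed Pck2 from the RNA test. Within 2 kb 10 peaks were lower and 5 higher in DE, and within 50 kb 44 and 24, with 2 lower in PWK. With a 2-fold minimum, 44 list genes in DE and 11 in PWK remained past the threshold, against 72 and 43. For DE, that minimum kept 2973 increases and 3403 decreases among all 14085 genes tested. For PWK against B6, it kept 890 increases and 694 decreases among all 14822. No excess of list genes at 2-fold is read from these counts. The bound for Pck2 ran from 528-fold to 793-fold. Low counts limit the precision of the Shmt2 start peak, and 2 libraries that of the PWK ATAC group.

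DE and EpiSC libraries share replicate numbers. The deviations of same-numbered RNA libraries correlated with r of 0.152 (2), 0.0884 (4), 0.214 (44) and 0.197 (51), and 3 of 4 correlated best with their own number, a hint of pairing in the RNA. Because r for number 4 was under 0.1, RNA numbers were not taken as pairs. In ATAC r was 0.0533, -0.0112 and 0.0305, all under 0.1, and those numbers were not taken as pairs either. With the replicate block, 8 genes were lower in DE (10 in the same libraries without it, Psph and Asns being the exceptions), 13 peaks were lower and 5 higher (15 and 8 without it), and 69 list genes changed (68 without it).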
